A study of Mus musculus with 18 samples.

Results

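S100 proteins are small calcium-binding proteins with paired EF-hand motifs, and their transcripts were followed in mouse dorsal skin. The genes described are S100a1, S100a3, S100a4, S100a6, S100a8, S100a9, S100a10, S100a14 and S100a16. They are the 9 of 10 listed genes to which the platform annotation assigns at least 1 probe set by that symbol alone, out of 18193 genes in the table. The 9 genes have 13 probe sets (3 for S100a10, 2 each for S100a1 and S100a16), and all 13 vary across the arrays. The only probe set of the remaining gene, S100a11, carries 3 symbols, so it was left out. Male albino hairless HR-1 mice, aged 6 weeks per the labels, fall into 3 groups of 6 arrays. NT skin was not stripped. TS skin was tape-stripped 3 times per week over 4 weeks, with stripping in a session stopped once water loss through the skin was 70 to 100 g/m2/h. TS_WB mice were stripped likewise and were given winged bean extract orally, 200 mg/kg/day 5 times per week over 5 weeks, in 0.3% carboxymethylcellulose. The titles call the arrays biological replicates. Stripping began 1 week after the extract. The sources used here do not say whether NT and TS mice received the vehicle.

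Calcium binding opens a surface on an S100 protein that docks on target proteins, and different members act inside or outside the cell. S100a8 and S100a9 pair to form calprotectin, a zinc-binding antimicrobial protein of neutrophils that keratinocytes also make when injured. S100a10 binds annexin A2 at the cell membrane, S100a4 binds non-muscle myosin in motile mesenchymal and immune cells, S100a3 belongs to the hair cuticle, and S100a1 is best known from muscle. In the RefSeq assembly GRCm38.p6 all of these genes lie on chromosome 3. Along it the order of the S100a genes begins with S100a1, S100a13, S100a14, S100a16 and S100a3, and S100a9 directly follows S100a8.

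The values of S100a8 and S100a9 ran together from array to array, so the 250 bases before the transcription start of each are shown, taken from RefSeq (GRCm38.p6) and written 5′ to 3′ on the gene's strand. The S100a8 window is chr3:90668821-90669070 on the plus strand, and the S100a9 window is chr3:90695722-90695971 on the minus strand. Capitals mark matches, on either strand, to TATAAA (a core promoter element), TGANTCA (AP-1 site) or TTGCNNAA (C/EBP-type site).
S100a8: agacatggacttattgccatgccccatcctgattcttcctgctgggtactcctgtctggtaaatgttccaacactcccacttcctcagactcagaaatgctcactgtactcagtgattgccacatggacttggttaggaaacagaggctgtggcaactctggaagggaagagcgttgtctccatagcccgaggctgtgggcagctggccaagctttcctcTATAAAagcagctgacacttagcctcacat
S100a9: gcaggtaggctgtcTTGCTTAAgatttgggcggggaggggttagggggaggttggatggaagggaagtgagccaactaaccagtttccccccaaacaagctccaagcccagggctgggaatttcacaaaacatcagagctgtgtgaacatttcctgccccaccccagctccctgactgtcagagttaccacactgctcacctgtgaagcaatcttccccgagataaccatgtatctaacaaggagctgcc
The S100a8 window holds TATAAA 30 bases before the start, and the S100a9 window holds TTGCTTAA 236 bases before it. Neither window has the letters of either other motif searched. Among 32536 distinct windows of the same length before mouse gene starts, 12.3% hold TATAAA, 9.57% TTGCNNAA and 6.73% TGANTCA. These matches describe the letters in the windows and nothing about binding.

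Values are on the deposited log2 scale, ± gives the SD over 6 arrays, and adjusted p is from limma with Benjamini-Hochberg adjustment over 45037 probe sets. A probe set was said to rise or fall when adjusted p was under 0.05 and the difference at least 0.01. Where a gene has several probe sets, the one with the highest mean over all arrays stands for it unless another is named. For S100a10 it is 1456642_x_at (mean 11.60), against 10.84 for 1416762_at. In NT and TS 1416762_at was the brighter, so its low TS_WB values decided this choice. Of the 45037 probe sets only 11946 vary by at least 0.01, so members are read against the varying ones. The mean of the array medians was 6.94 for NT and for TS and 6.90 for TS_WB, and no fold is given for a group mean under them. Array NT 5 carried liver transcripts, with albumin (Alb) at 19.04 against at most 6.96 on the other 17 arrays. Leaving NT 5 out changed the calls of S100a10 (1416762_at) and S100a16 (1447676_x_at) in TS against NT and of no other S100 probe set. The control probe sets for the 3' and 5' ends of beta-actin, which show how far the labelled RNA reaches from its 3' end, differed by -0.51 ± 0.10 in NT, 0.16 ± 0.07 in TS and 5.69 ± 0.25 in TS_WB (n = 6 each).

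**Figure D1:**
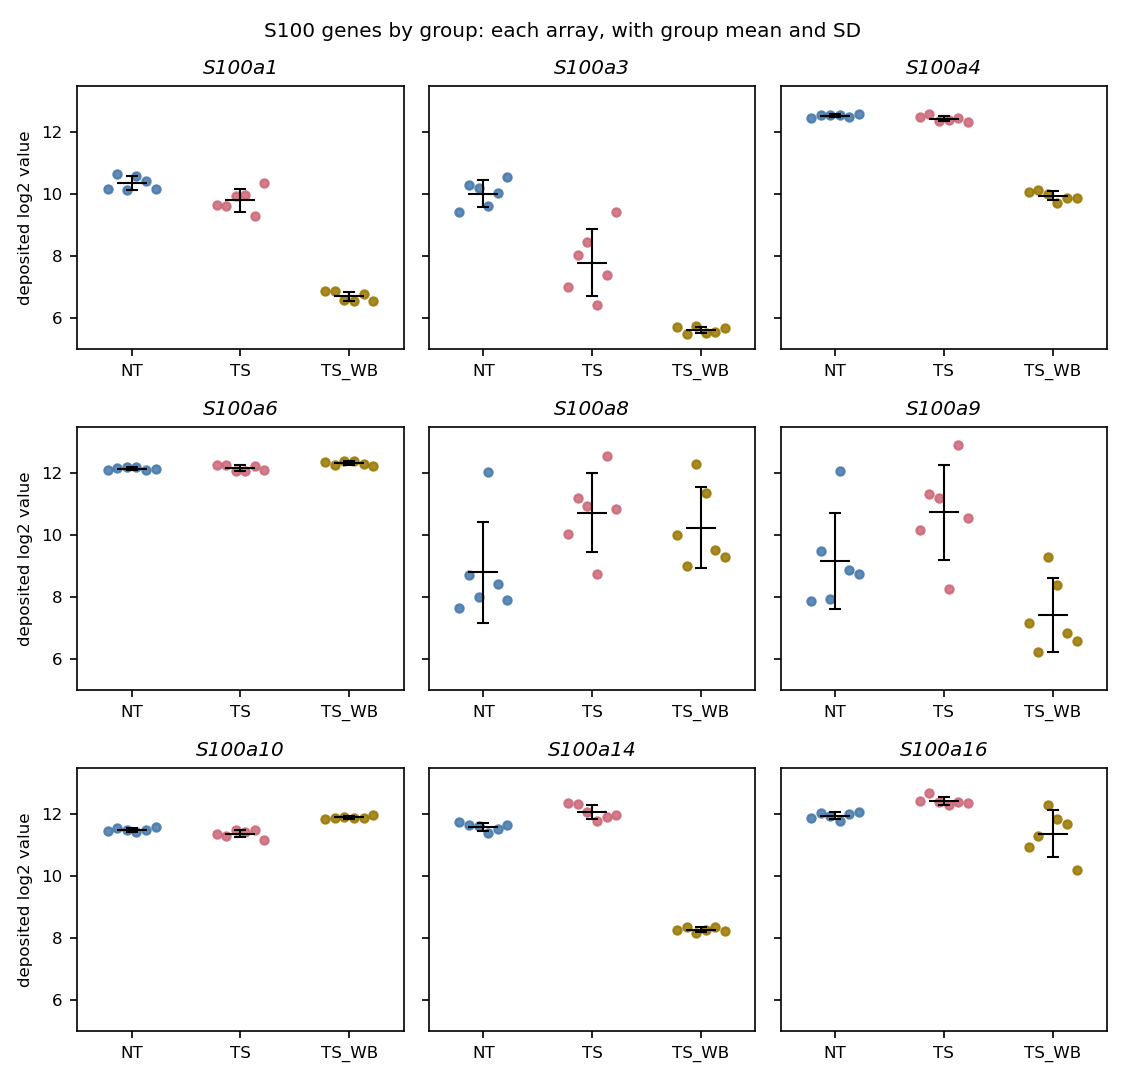
Deposited log2 values (vertical axis) of the 9 S100 genes on each array in NT, TS and TS_WB (horizontal axis), 1 probe set per gene, that of the highest mean; horizontal marks and bars give group mean and SD (n = 6). S100a3 steps down from NT to TS to TS_WB, S100a8 and S100a9 spread widely within every group, and S100a6 stays between 12.09 and 12.39 throughout.

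The comparison of TS with NT addressed what repeated stripping did. S100a3, a calcium- and zinc-binding protein of the hair cuticle, fell most, S100a1 fell by a smaller amount, and S100a14, a membrane-associated epithelial S100 protein, rose. S100a4, S100a6 and S100a10 differed by at most 0.30 and did not pass. S100a8 and S100a9 had higher means in TS but spread so widely that neither passed. By their highest-mean probe sets 1 of 9 genes rose and 2 fell, which is 3 called, beside 40.4% of the 6842 varying genes (19.3% higher and 21.1% lower). Of the 13 probe sets 2 rose and 3 fell, beside 38.1% of varying probe sets (18.7% higher and 19.4% lower) and 10.1% of all probe sets. The shares of the S100 genes lie near those backgrounds, and their median difference was 0.02 against 0.0019 over the varying genes.

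S100a3 stood at 9.43, 10.12 and 10.55 in NT (lowest, median and highest) and at 6.41, 7.71 and 9.42 in TS. Every TS array lay below every NT array, the highest of them, TS 6, by a narrow margin. The mean fell from 10.02 ± 0.43 to 7.79 ± 1.08, a difference of -2.23 (SE 0.39, 4.70-fold, adjusted p = 0.000888). The spread in TS was wider than in NT, with TS 4 lowest. The 5 genes whose values ran closest to S100a3 over the 12 NT and TS arrays, among 1512 genes with a range of at least 1, were all hair follicle structural genes. They are the inner root sheath keratins Krt27 (Pearson r = 0.99) and Krt25 (0.99), the sheath protein trichohyalin (Tchh, 0.99), the hair keratin-associated Krtap11-1 (0.99) and the hair keratin Krt33a (0.99). After the group means were subtracted, r was still 0.98 for Krt27 and 0.98 for Krt33a. These r values are descriptive, and the arrays share their group and their RNA preparation.

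The hair lists moved beside S100a3 in the same direction. Of 14 hair cuticle and cortex genes on the array, of which 11 vary, 10 fell and none rose, with a median of -0.91. The difference was -0.47 (SE 0.08) for Krt32, a cuticle keratin, -0.58 (SE 0.12) for Krt35, -0.51 (SE 0.10) for Krt83 and -2.05 (SE 0.44) for Krt33a. The summed level of this list, on the log2 scale, ran from 11.72 to 12.62 in NT and from 10.34 to 12.13 in TS. All 8 varying inner root sheath genes of 9 on the array fell, and their summed level ran from 12.86 to 13.93 in NT and from 10.18 to 12.98 in TS. TS 6 was highest and TS 4 lowest of the TS arrays in both lists, as for S100a3. In bulk skin, fewer follicle cells and less transcript per cell cannot be told apart. Padi3, the deiminase that converts arginines of S100a3, fell by 0.86 (SE 0.25, adjusted p = 0.0298).

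S100a1, an intracellular modulator of calcium handling in striated muscle, is measured by a pair of probe sets. By 1417421_at it stood at 8.57, 8.71 and 8.997 in NT (lowest, median, highest) and at 7.95, 8.25 and 8.45 in TS, so the groups did not overlap. The mean fell from 8.76 ± 0.17 to 8.24 ± 0.19 (difference -0.53, SE 0.10, 1.44-fold, adjusted p = 0.00120). By 1419814_s_at it stood at 10.15, 10.30 and 10.66 in NT and at 9.29, 9.79 and 10.37 in TS. There 5 of 6 TS arrays lay below all NT arrays, and the difference was -0.55 (SE 0.15, adjusted p = 0.0218). This second call was lost without NT 2 (adjusted p = 0.0551), NT 4 (0.0533) or TS 2 (0.0517) and when only the 12 NT and TS arrays were fitted (0.0636) or with the replicate block (0.0652), while that of 1417421_at held in each.

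The genes running closest to S100a1 (1419814_s_at) over the 12 arrays were phagocyte genes. They are the metal transporter Slc11a1 (r = 0.91), the oxidase subunits Cybb (0.90) and Cyba (0.90), the lysosomal marker Cd68 (0.89) and Cd300lb (0.89). With the group means subtracted, these r values ran from 0.78 (Cd300lb) to 0.81 (Cybb). Of 15 monocyte and macrophage genes on the array, of which 14 vary, 9 fell and 1 rose (median -0.55). Their summed level ran from 15.59 to 16.06 in NT and from 14.96 to 15.58 in TS. Of 16 skeletal muscle genes 13 fell and none rose (median -2.02), and their summed level ran from 16.75 to 18.02 in NT and from 15.32 to 15.82 in TS. The actin 3' minus 5' control difference also rose between these groups, by 0.66 (exact permutation test, two-sided, p = 0.00216, the smallest that 6 against 6 arrays allow, adjusted over 6 tests 0.0026). The adipocyte list fell in 6 of 7 genes, and 1 of 2 varying Schwann cell and nerve genes fell. The part of these cell types and of RNA quality in the S100a1 difference was not tested.

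**Figure D2:**
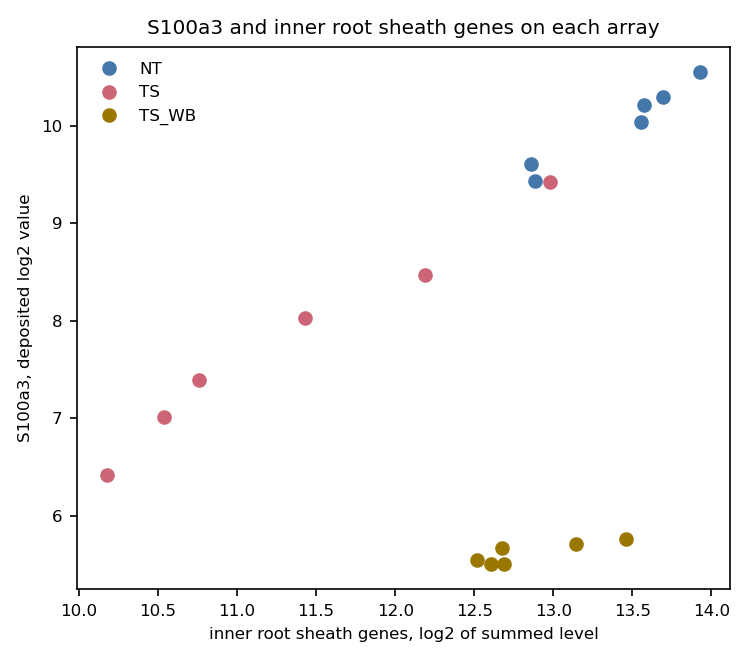
S100a3 (vertical axis, deposited log2 value) against the summed level of 8 inner root sheath genes (horizontal axis, log2) on each array, coloured by group. NT and TS arrays lie on one rising band. The 6 TS_WB arrays lie at S100a3 values of 5.50 to 5.76, and their summed sheath level stands at 12.52 to 13.46.

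S100a14 rose with stripping. Its values were 11.40, 11.63 and 11.75 in NT (lowest, median, highest) and 11.79, 12.03 and 12.37 in TS. All 6 TS arrays lay above all NT arrays, and the mean went from 11.60 ± 0.12 to 12.08 ± 0.23 (difference 0.48, SE 0.09, 1.39-fold, adjusted p = 0.00164). The SD in TS_WB, which enters this fit, was 0.08. Fitted on only the 12 NT and TS arrays, the rise passed with adjusted p = 0.0124. Over the 12 arrays its values ran closest to those of the vesicle-trafficking GTPase Rab11a (r = 0.95), the desmosomal cadherin Dsg1b (0.95), the histidyl-tRNA synthetase Hars (0.95), the mitochondrial creatine kinase Ckmt1 (0.95) and Eif1ad (0.94). With the group means subtracted, these r values ran from 0.83 (Dsg1b) to 0.91 (Eif1ad).

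S100a16, the broadly expressed member encoded next to S100a14, also lay higher in every TS array by both of its probe sets. By 1447676_x_at it went from 11.16 ± 0.07 to 11.51 ± 0.09, and the highest NT array (11.24) lay below the lowest TS array (11.35). The rise of 0.34 (SE 0.11) passed narrowly (adjusted p = 0.0444). It missed the threshold without any 1 of 14 arrays, namely each NT array, TS 1, TS 2, TS 3, TS 5, TS 6, TS_WB 1, TS_WB 2 and TS_WB 5 (adjusted p = 0.0521 to 0.0947). It also missed after median centring (0.0535), in the trended robust fit (0.0508) and with the replicate block (0.0759). By 1425560_a_at it went from 11.96 ± 0.11 to 12.44 ± 0.13, with the highest NT array at 12.09 and the lowest TS array at 12.31. That difference of 0.48 (SE 0.25) did not pass (adjusted p = 0.272). The fit estimates 1 spread over the 3 groups, and the SD of this probe set was 0.75 in TS_WB. Fitted on only the 12 NT and TS arrays, both probe sets passed (adjusted p = 0.00136 for 1425560_a_at and 0.00121 for 1447676_x_at). S100a16 ran closest to the RNA methyltransferase Nsun2 (r = 0.98), Avpi1 (0.97), the mitochondrial Higd1a (0.97), Fgfbp3 (0.97) and Hars (0.96). With the group means subtracted, these r values ran from 0.78 (Hars) to 0.87 (Nsun2).

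The suprabasal keratinocyte list moved upward beside S100a14 and S100a16. Of its 10 genes 7 rose and none fell (median 0.73), among them the desmocollin Dsc1 (2.39, SE 0.17) and the keratin Krt1 (1.34, SE 0.17). The summed level of the list ran from 15.36 to 15.87 in NT and from 15.93 to 16.46 in TS. Of 9 basal keratinocyte genes on the array 3 rose and 1 fell, and their summed level ran from 14.32 to 14.77 in NT and from 14.74 to 15.33 in TS. Their part in the 2 rises was not tested. The neighbours S100a1 and S100a13 lie beside S100a14 and S100a16 on the chromosome and moved the other way, S100a13 from 9.57 ± 0.08 to 9.08 ± 0.12 (adjusted p = 0.00128).

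S100a8 and S100a9 varied more within each group than any other S100 gene described here. S100a8 stood at 7.67, 8.23 and 12.03 in NT (lowest, median, highest) and at 8.74, 10.90 and 12.56 in TS. S100a9 stood at 7.86, 8.81 and 12.08 in NT and at 8.27, 10.89 and 12.92 in TS. For both genes NT 4 lay far above the other NT arrays, TS 5 was the highest array of all 18, and TS 4 was the lowest of the TS group. S100a8 differed by 1.93 (SE 0.81, 95% interval 0.21 to 3.66) from 8.80 ± 1.63 to 10.73 ± 1.27, and did not pass (adjusted p = 0.140). S100a9 differed by 1.58 (SE 0.82, 95% interval -0.18 to 3.33) from 9.17 ± 1.55 to 10.75 ± 1.54 (adjusted p = 0.259). Leaving out NT 4, the S100a8 difference was 2.58 and passed (adjusted p = 0.0183), and it also passed when varying probe sets alone were fitted (0.0496) or probe sets were averaged by gene (0.0478). S100a9 passed under none of the alternatives run.

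The calprotectin subunits kept the same order of arrays. Within TS their values correlated at Pearson r = 0.99 (exact permutation p = 0.00139, n = 6) and Spearman rho = 1 (exact permutation p = 0.00278), and r was 0.89 without the pair of arrays farthest from the S100a8 median. Within NT r was 0.97 (exact permutation p = 0.00694) with rho = 0.94 (exact p = 0.0167), and 0.79 without the 2 farthest arrays. Within TS_WB r was 0.999 (exact permutation p = 0.00139) with rho = 1, and 0.99 without the 2 farthest. Adjusted over 12 relations among S100 genes, the exact p-values of r were 0.0278 in NT and 0.00833 in TS and in TS_WB. Of the other relations, S100a4 with S100a6 in TS had r = 0.89 (exact permutation p = 0.0167, adjusted 0.05), rho = 0.77 (exact p = 0.103) and r = 0.96 without the 2 farthest arrays, and the rest had adjusted exact p-values of 0.0867 to 0.892.

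**Figure D3:**
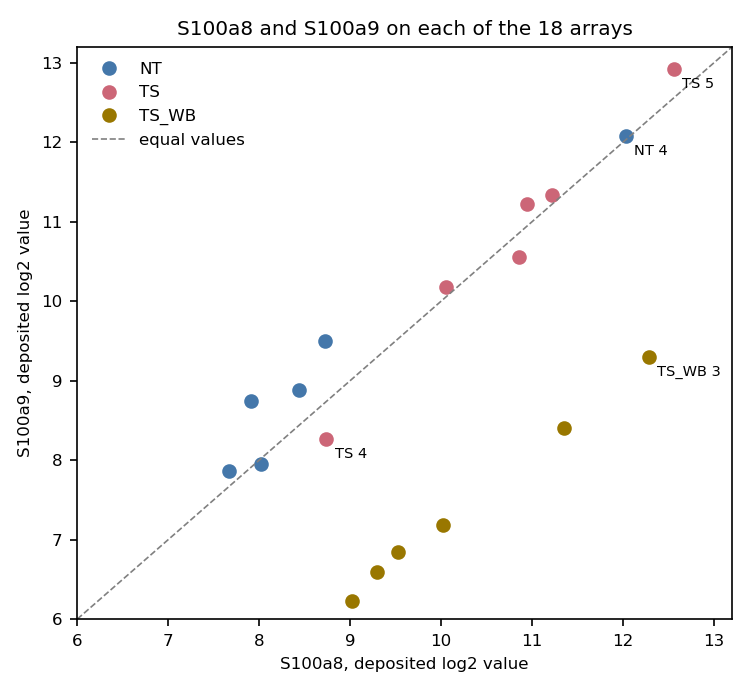
S100a9 against S100a8 (both axes deposited log2 values) on each of 18 arrays, coloured by group, with a dashed line of equal values. NT and TS arrays scatter along the line, and the 6 TS_WB arrays form a parallel line about 2.83 below it.

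Besides each other, S100a8 and S100a9 ran closest over the 12 arrays to the cornified envelope precursor Sprr2f (r = 0.89 and 0.87), the siderophore-binding lipocalin Lcn2 (0.87 and 0.90) and Sprr2i (0.86 and 0.84). Fbln7 (0.84 with S100a8) and the protease inhibitor Slpi (0.84 with S100a9) followed. Of 17 neutrophil genes on the array 7 vary; 2 rose and 1 fell. The risers were the stefins Stfa3 (2.74, SE 0.20) and Stfa2l1 (4.27, SE 0.35), which keratinocytes also make, as they do Lcn2. The formyl peptide receptor Fpr2 fell by 1.15 (SE 0.17), and Lcn2 differed by 1.31 (SE 0.57, adjusted p = 0.156). The granule and receptor genes Cxcr2, Elane, Camp, Ltf, Ngp, Mmp8, Mmp9, Prtn3 and Ctsg are among the 10 that are constant over the 18 arrays and give no information.

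The summed level of the neutrophil list ran from 11.31 to 12.28 in NT and from 13.19 to 14.22 in TS. In TS it was carried mostly by the stefin Stfa3 (13.18 ± 0.30, against 10.44 ± 0.40 in NT). The median difference of the 7 varying genes was -0.01, so the sum does not describe the list as a whole. The sum was highest of NT on NT 4, and of TS highest on TS 5 and lowest on TS 4, as for S100a8. The stress keratinocyte list, with 6 of 7 genes that rose, including the wound keratin Krt6b (6.93, SE 0.42), was also highest on TS 5 and lowest on TS 4 within TS. In NT it was highest on NT 5. The part of these cells in the S100a8 and S100a9 values was not tested.

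By highest-mean probe sets, S100a4, S100a6 and S100a10 had the smallest differences of the 9 genes. S100a4, also known as fibroblast-specific protein, went from 12.54 ± 0.05 to 12.44 ± 0.09 (difference -0.10, 95% interval -0.23 to 0.03, adjusted p = 0.375). Of 9 fibroblast genes on the array 1 rose and 1 fell. S100a6, calcyclin, went from 12.16 ± 0.04 to 12.18 ± 0.09, a difference of 0.02 (95% interval -0.07 to 0.10). Its small variation over the 12 arrays ran closest to the DNA replication genes Mcm6 (r = 0.93), Mcm3 (0.85), Uhrf1 (0.82), Dut (0.81) and the condensin Ncaph (0.79), and r with Mcm6 was 0.94 after the group means were subtracted. The range of S100a6 was 0.11 in NT and 0.19 in TS, so these r values rest on small differences. S100a4 ran closest to Nnat (0.84), Glb1l2 (0.81), Sectm1a (0.81), Prkar2b (0.79) and Rex1bd (0.79).

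S100a10 went from 11.50 ± 0.06 to 11.37 ± 0.12 by 1456642_x_at (difference -0.13, SE 0.05, adjusted p = 0.0759). By 1416762_at it went from 13.53 ± 0.18 to 13.23 ± 0.18 (difference -0.30, SE 0.10, adjusted p = 0.0560) and by 1439348_at from 7.41 ± 0.49 to 7.60 ± 0.54 (adjusted p = 0.877). The 1416762_at difference passed without NT 4, NT 5, TS 3 or TS 5 (adjusted p = 0.0295 to 0.0489) and without dim probe sets (0.0428) or with varying probe sets alone (0.0183), and that of 1456642_x_at without TS 3 (0.0410) or TS 5 (0.0349) or with varying probe sets alone (0.0349). S100a10 ran closest to Tppp3 (r = 0.90), the thrombospondins Thbs3 (0.89) and Thbs4 (0.88), Csrp1 (0.85) and the collagen prolyl hydroxylase P4ha1 (0.84).

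Of 24 partner and receptor genes of S100 proteins on the array 20 vary. With stripping 10 fell, none rose and 10 did not pass, beside 21.1% of varying genes that fell, with a median of -0.31. Anxa2, the annexin that carries S100a10, fell by 0.42 (SE 0.08) from 13.39 ± 0.08 to 12.97 ± 0.18. The annexin Anxa5 fell by 0.73 (SE 0.09), Anxa6 fell by 0.54 (SE 0.10), and the transglutaminase Tgm2 fell by 0.75 (SE 0.13). Ager, which encodes the calprotectin receptor RAGE, is constant across the arrays, and Tlr4, which encodes another such receptor, differed by -0.34 (SE 0.13, adjusted p = 0.0809). Of 6 further S100-named genes on the array 2 vary, and both fell: S100a13 as given above and S100a7l2, from 8.98 ± 0.51 to 7.54 ± 0.85 (adjusted p = 0.0208). S100a5, S100b, S100g and S100pbp are constant.

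TS_WB was set against TS to see the extract's part in stripped skin. Most S100 probe sets fell on TS_WB arrays, S100a10 gave opposite answers by different probe sets, and S100a9 fell while S100a8 did not pass, although both kept the same order of arrays. All of this stood beside the large actin 3' minus 5' difference on TS_WB arrays, 5.53 above TS, and a Gapdh 3' minus 5' difference of 3.70 ± 0.36 against -0.44 ± 0.12 (exact permutation p = 0.00216 for each, n = 6 per group, adjusted 0.0026). The extract and this measure cannot be told apart: the lowest TS_WB array had an actin difference of 5.27 and the highest TS array 0.26. By highest-mean probe sets 2 of 9 genes rose and 6 fell, beside 87.7% of varying genes called (48.4% higher and 39.2% lower). S100a10 counts here as a rise by 1456642_x_at, whereas 1416762_at, brighter in NT and TS, fell. Of 13 probe sets 3 rose and 8 fell, beside 88.8% of varying probe sets (47.1% higher and 41.7% lower) and 23.6% of all. The number called is near the background, and the median difference was -2.17 over the 9 genes and 0.16 over the varying genes.

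S100a10 shows the disagreement most plainly. By 1416762_at it fell from 13.23 ± 0.18 to 5.77 ± 0.16 (difference -7.46, SE 0.10, adjusted p = 1.6e-18), with all TS_WB arrays between 5.55 and 5.99 and all TS arrays between 13.04 and 13.47. By 1456642_x_at it rose from 11.37 ± 0.12 to 11.91 ± 0.04 (difference 0.53, SE 0.05, adjusted p = 7.1e-08). By 1439348_at it rose from 7.60 ± 0.54 to 8.50 ± 0.41 (difference 0.90, SE 0.28, adjusted p = 0.0133), and the groups overlapped. The difference between 1416762_at and 1456642_x_at within an array was 2.02 ± 0.13 in NT, 1.86 ± 0.10 in TS and -6.13 ± 0.15 in TS_WB. TS_WB differed from TS in it by -7.99 (exact permutation p = 0.00216, adjusted over 15 such tests 0.00325). Both probe sets had moved in opposite directions without overlap, so this p-value adds nothing to their separate tests. The direction of S100a10 on TS_WB arrays therefore depended on the probe set. The TS_WB mean of 1416762_at lay under the array median of 6.90. In NT 1439348_at stood at only 7.41 ± 0.49, against 13.53 ± 0.18 by 1416762_at and an array median of 6.94.

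**Figure D4:**
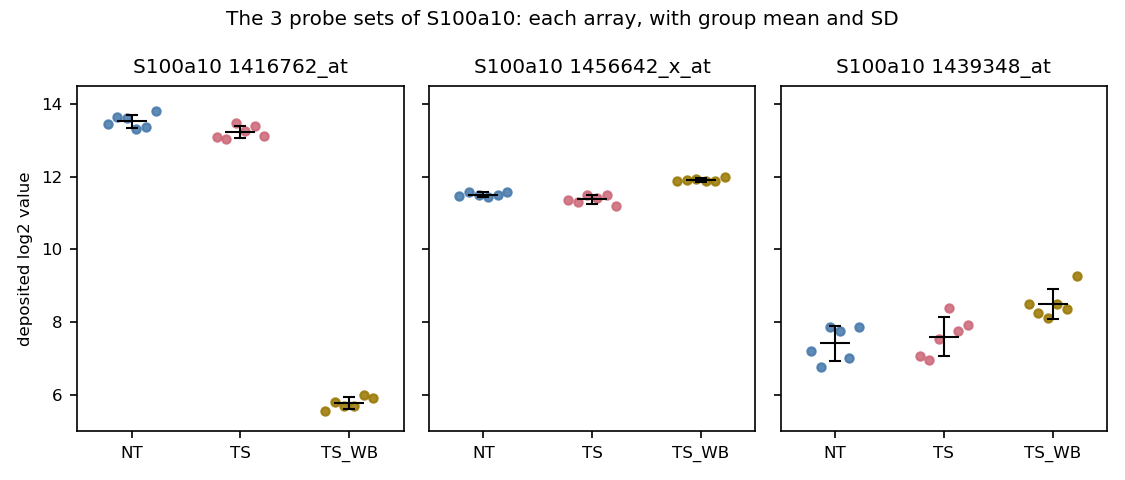
Deposited log2 values (vertical axis) of S100a10 by each of its 3 probe sets on every array in NT, TS and TS_WB (horizontal axis), with group mean and SD (n = 6). From TS to TS_WB the left probe set drops from 13.23 to 5.77 while the middle one goes from 11.37 to 11.91 and the right one from 7.60 to 8.50.

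S100a8 did not pass, at 9.02, 9.77 and 12.29 in TS_WB (lowest, median, highest), a mean of 10.25 ± 1.29 and a difference from TS of -0.48 (SE 0.81, 95% interval -2.20 to 1.25, adjusted p = 0.755). S100a9 stood at 6.22, 7.01 and 9.30, with 4 of 6 TS_WB arrays below all TS arrays. Its mean fell from 10.75 ± 1.54 to 7.42 ± 1.18 (difference -3.33, SE 0.82, 10.02-fold, adjusted p = 0.00315). TS_WB 2, TS_WB 5 and TS_WB 6 (6.22, 6.84 and 6.59) lay under the array median of 6.90. The fold thus rests partly on values that may sit at background. The S100a8 value minus the S100a9 value within an array was -0.37 ± 0.38 in NT, -0.02 ± 0.33 in TS and 2.83 ± 0.13 in TS_WB. The shift of 2.85 from TS to TS_WB passed (exact permutation p = 0.00216, adjusted 0.00325), and that of 0.35 from NT to TS did not (exact p = 0.119, adjusted 0.134). This measure was chosen after the values were seen. TS_WB 3 was the highest TS_WB array and TS_WB 2 the lowest for both genes. Lcn2 fell as S100a9 did, from 10.12 ± 1.28 to 7.04 ± 0.88 (difference -3.08, SE 0.57, adjusted p = 0.000258). Of the 7 varying neutrophil genes 1 rose and 3 fell (median -0.03). Their summed level, carried mostly by Stfa3 at 13.21 ± 0.36, ran from 12.92 to 13.76. Of the 7 stress keratinocyte genes 4 fell and none rose.

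**Figure D5:**
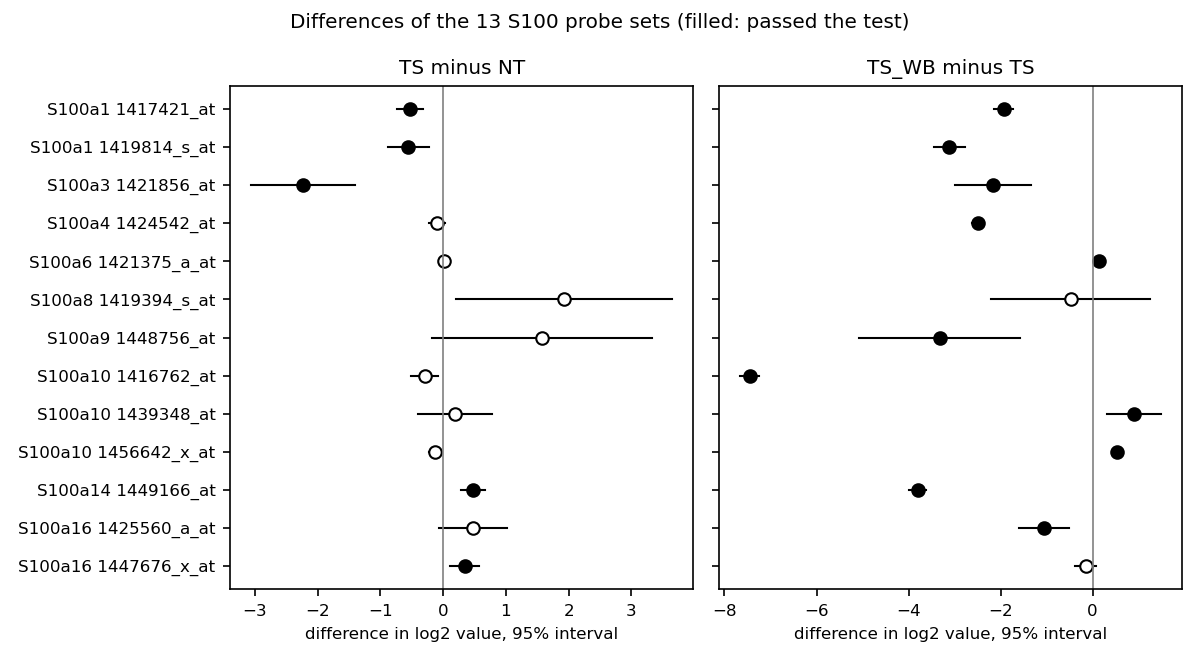
Differences in deposited log2 value (horizontal axes) of the 13 S100 probe sets (rows) for TS minus NT and TS_WB minus TS, with 95% intervals from limma; filled points passed the test. The widest intervals are those of S100a8 and S100a9, and on the right the 3 probe sets of S100a10 lie at -7.46, 0.90 and 0.53.

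S100a14, which had risen with stripping, fell from 12.08 ± 0.23 to 8.28 ± 0.08 (difference -3.80, SE 0.09, 13.97-fold, adjusted p = 5.3e-15), with the highest TS_WB array at 8.38 and the lowest TS array at 11.79. S100a16 fell from 12.44 ± 0.13 to 11.38 ± 0.75 by 1425560_a_at (difference -1.05, SE 0.25, adjusted p = 0.00252) and did not pass by 1447676_x_at (-0.15, SE 0.11, adjusted p = 0.322). TS_WB 6 was lowest and TS_WB 3 highest by both S100a16 probe sets. Within an array 1425560_a_at lay above 1447676_x_at by 0.93 ± 0.08 in TS and by 0.03 ± 0.44 in TS_WB (exact permutation p = 0.00216, adjusted 0.00325). The suprabasal list, by contrast, had 2 genes that rose and 3 that fell of 10, and its summed level ran from 16.08 to 16.41 in TS_WB against 15.93 to 16.46 in TS.

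S100a3 fell further, to 5.50, 5.61 and 5.76 in TS_WB (lowest, median, highest), all below the lowest TS array and below the array median (difference -2.17, SE 0.39, adjusted p = 0.00019). The hair lists as a whole did not follow it from TS to TS_WB, though part of each stayed low. Against NT, 6 of 11 cuticle and cortex genes and 2 of 8 sheath genes fell in TS_WB and none rose. This stands beside 41.3% of varying genes that were lower. The 2 sheath genes were Krt71 (-2.38, SE 0.35) and Krt73 (-2.46, SE 0.38). Of 11 varying hair cuticle and cortex genes 3 rose and 1 fell from TS to TS_WB, and 5 of 8 varying inner root sheath genes rose and none fell. The summed level of the sheath list ran from 12.52 to 13.46 in TS_WB, against 10.18 to 12.98 in TS. S100a3 spread by 0.26 over the TS_WB arrays, against 3.01 over TS.

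S100a1 fell to 6.31 ± 0.12 by 1417421_at and 6.70 ± 0.15 by 1419814_s_at, both below the array median, with differences of -1.93 (SE 0.10, adjusted p = 6.8e-11) and -3.11 (SE 0.15, adjusted p = 6.9e-11). All TS_WB arrays lay below all TS arrays by both. Of 16 skeletal muscle genes 11 fell and none rose beside it, and their summed level ran from 13.59 to 14.47. Of 14 varying monocyte and macrophage genes 9 fell and 3 rose, with a summed level of 14.41 to 14.64.

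S100a4, which had not passed under stripping, fell from 12.44 ± 0.09 to 9.96 ± 0.15 (difference -2.49, SE 0.06, 5.61-fold, adjusted p = 6.6e-15), with no overlap. Of 9 fibroblast genes 3 rose and 4 fell, and their summed level ran from 15.63 to 15.77 in TS_WB and from 16.17 to 16.28 in TS. S100a6 rose from 12.18 ± 0.09 to 12.32 ± 0.07 (difference 0.15, SE 0.04, 1.11-fold, adjusted p = 0.00636), with 4 of 6 TS_WB arrays above all TS arrays. Of 20 varying partner genes 6 rose and 10 fell, beside 48.4% of varying genes that were higher and 39.2% lower. Those that rose include Tlr4 (1.15, SE 0.13) and the non-muscle myosin gene Myh9 (0.58, SE 0.07). Among those that fell, the difference was -2.84 (SE 0.08) for Anxa2, -1.39 (SE 0.10) for Anxa6, -1.02 (SE 0.06) for Ppfibp1, a binding partner of S100a4, and -0.53 (SE 0.04) for Anxa1. S100a13 fell by 0.44 (SE 0.09), and S100a7l2 differed by -0.71 (SE 0.40, adjusted p = 0.173).

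The comparison of TS_WB with NT shares its arrays with the others and spans stripping and extract together. By highest-mean probe sets 2 of 9 genes rose and 4 fell, beside 88.2% of varying genes called (46.9% higher and 41.3% lower). S100a10 counts as a rise here too, though 1416762_at fell (difference -7.75, SE 0.10). Of 13 probe sets 3 rose and 6 fell, beside 89.3% of varying probe sets (45.7% higher and 43.6% lower) and 23.7% of all. S100a14 differed from NT by -3.32 (SE 0.09), S100a4 by -2.59 (SE 0.06), S100a3 by -4.41 (SE 0.39) and S100a1 by -3.66 (SE 0.15), and S100a6 and S100a10 (1456642_x_at) by 0.16 (SE 0.04) and 0.40 (SE 0.05). S100a8, S100a9 and S100a16 did not pass, with differences of 1.45 (adjusted p = 0.163), -1.75 (0.0985) and -0.58 (0.0761). The S100a8 difference passed when NT 4 was left out (2.10, adjusted p = 0.0175), and that of S100a9 without TS_WB 3 (-2.12, 0.0493), with varying probe sets alone (0.0447) or averaged by gene (0.0455). That of S100a16 (1425560_a_at) passed without TS_WB 3 (-0.76, 0.0104) or TS_WB 4 (-0.67, 0.0491), with varying probe sets alone (0.0332), array weights (0.0274) or median centring (0.0470). By 1447676_x_at S100a16 went the other way, by 0.20 (adjusted p = 0.166), and passed as a rise after quantile normalization (0.39, adjusted p = 0.00327) or median centring (0.0451) and without TS_WB 6 (0.00653).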

How the data were processed

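Total RNA of dorsal skin (100 ng per array) was labelled and hybridised to Affymetrix mouse genome arrays, 1 array per sample, per the labels' protocols. The deposited log2 values, 1 per probe set and array, were summarised and normalised by the authors in a way the labels' protocols do not state. Their log base is not stated either and was read from their range, 2.93 to 19.04. The number of arrays limits the precision, and there is no measure of background. Of 45101 probe sets, 64 controls were left out. The other 45037 went into 1 limma fit (version 3.58.1, R 4.3.3, lmFit and eBayes, two-sided) of all 18 arrays. Only 11946 vary by at least 0.01. Symbols come from the platform annotation. Within-array differences were compared by exact permutation of arrays.

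The S100 genes, gene lists and tests were chosen with earlier results of these data known. Named genes are all members, at most 4 genes of smallest p per list and comparison, and the 5 genes most correlated with each member. Padi3, Tlr4, Myh9 and constant genes were named after their values were seen. The labels do not state that replicate numbers pair the arrays, and the main fit does not pair them. Of 6 same-numbered pairs, deviations correlated above 0.1 in 2 for NT with TS, 0 for TS with TS_WB and 2 for NT with TS_WB. Low correlations cannot show that the animals were not matched. On simulated TS against NT data over 45037 probe sets the fit recovered 60 of 100 changes of 0.5 and 95 of 100 of 1.5. It made 3 false calls. The simulation changed far fewer probe sets than the 4551 called in the data, so recovery there may differ. Alternatives were quantile normalization, median centring, a filter on dim probe sets, varying probe sets alone, array weights, a trended robust fit, 2 groups alone, the replicate block, averaging the varying probe sets of each gene and leaving out each array.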

Additional observations from a re-analysis of the deposited data

Results flagged for a closer look

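An array that stood apart from the other 5 of its group, by the gap to the nearest one over the range of the group, was found for 3 of 39 combinations of probe set and group; chance gives about 1 in 20. S100a8 on NT 4 stood at 12.03, with the next NT array at 8.73. S100a16 (1425560_a_at) on TS 2 stood at 12.68, with the next TS array at 12.45. S100a10 (1439348_at) on TS_WB 6 stood at 9.27, with the next TS_WB array at 8.50.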

How the results depend on the processing

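The count of S100 genes called in TS against NT, 3 of 9, was 5 when varying probe sets alone were fitted, and without each array in turn it ran from 2 to 4. In TS_WB against TS it was 8 throughout the leave-outs, and in TS_WB against NT, with 6, it ran from 6 to 8. Over all probe sets, calls in TS_WB against TS rose from 10612 to 39795 (88.1% higher, against 53.1%) after quantile normalization and to 43993 (88.8% higher) after median centring. In TS_WB against NT they rose from 10667 to 41328 (88.3% higher, against 51.2%) and 43993 (88.3% higher). Both scalings move the otherwise constant probe sets. In TS against NT quantile normalization gave 6804 calls, 68.8% of them higher, against 4551 and 49.2%. With the mean of its probe sets S100a10 turned from a rise to a fall, at -2.01 in TS_WB against TS and -2.09 in TS_WB against NT, since 1416762_at enters that mean. No S100 probe set that passed changed direction under another alternative. With the replicate number as a replicate block, 2 S100 genes were called in TS against NT (S100a1 no longer passed by 1419814_s_at), 8 in TS_WB against TS and 6 against NT; probe sets called were 4171, 10510 and 10592. Probe sets are limited by signal: a group mean under the array median may sit at background, which the table does not measure.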
